A study of Mus musculus with 18 samples.

Results

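The 76 genes described here were transcribed in mouse embryonic stem cells lacking several subunits of Polycomb repressive complex 1 (PRC1), and were at very low levels in WT cells and in cells lacking 1 Ring1 protein. They are the genes whose group mean was at a TPM (transcripts per 1000000 transcripts) of 2 or more in each of Pcgf-6KO, Pcgf-4KO and Ring1a/b-dKO cells and under 1 TPM in Ring1b-KO, Ring1a-KO and WT cells. They were selected on these measured means among 56551 genes of the deposited table, and leaving out symbols that start with Hox removed 0 genes. Because the means chose the genes, their levels and their differences between the first 3 of these groups and the last 3 are a description and carry no test. The 18 RNA-seq libraries comprise 3 of each group. By genotype, Pcgf-6KO cells are Pcgf1/2/3/4/5/6-/-, Pcgf-4KO cells Pcgf1/3/5/6-/-, Ring1a/b-dKO cells Ring1a/b-/-, Ring1b-KO cells Ring1b-/- and Ring1a-KO cells Ring1a-/-, and WT cells carry none of these deletions. Pcgf-6KO, Pcgf-4KO and Ring1a/b-dKO are called the combined mutants below, and Ring1b-KO and Ring1a-KO the single mutants. No mutant of a single Pcgf gene is among the groups, and the labels name no clone, strain, medium or batch. Nor do they tell if replicate libraries stem from different cultures, so a p-value here measures the spread between libraries, which may be technical.

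PRC1 is a chromatin complex that attaches ubiquitin to a core histone at silent genes. The ubiquitin ligase subunit is either Ring1a, encoded by Ring1, or Ring1b, encoded by Rnf2. A Pcgf protein, of which there are 6, is its partner in every complex. Complexes with Pcgf2 or Pcgf4 (gene Bmi1) are called canonical and carry Cbx and Phc subunits, whereas those with Pcgf1, Pcgf3, Pcgf5 or Pcgf6 are called variant. In embryonic stem cells PRC1 is known to occupy CpG islands at genes of embryonic patterning, which include many transcription factors and signalling molecules.

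Because PRC1 is known for binding stretches rich in CpG, the windows around the annotated start (250 bases before it to 50 after) of 4 of the genes are shown, with every CpG in capitals. They come from RefSeq on GRCm38.p6 and were picked, with the values known, for roles and CpG numbers that differ. Foxl2 (chr9:98955357-98955656, plus strand) and Atoh1 (chr6:64728875-64729174, plus strand) encode transcription factors, and their windows hold 27 and 20 CpG. Csf1 (chr3:107760420-107760719, minus strand) encodes a growth factor and Fgd3 (chr13:49309159-49309458, minus strand) an activator of a small GTPase, and their windows hold 16 and 7 CpG. The Fgd3 window lies well inside the gene as annotated by GENCODE (49261554 to 49320311), away from its 5' end. The median of all 32851 windows in the table was 7 CpG.
Foxl2: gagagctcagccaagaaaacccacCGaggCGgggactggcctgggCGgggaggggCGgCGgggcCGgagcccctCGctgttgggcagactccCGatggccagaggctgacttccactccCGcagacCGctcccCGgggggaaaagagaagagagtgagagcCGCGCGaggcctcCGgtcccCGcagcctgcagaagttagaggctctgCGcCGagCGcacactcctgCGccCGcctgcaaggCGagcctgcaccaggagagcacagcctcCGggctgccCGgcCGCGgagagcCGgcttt
Atoh1: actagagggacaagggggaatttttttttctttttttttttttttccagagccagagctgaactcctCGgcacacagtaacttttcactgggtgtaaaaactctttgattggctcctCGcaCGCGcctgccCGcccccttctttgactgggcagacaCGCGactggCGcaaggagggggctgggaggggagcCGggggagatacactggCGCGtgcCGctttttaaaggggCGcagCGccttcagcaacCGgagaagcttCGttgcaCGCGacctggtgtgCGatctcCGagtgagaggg
Csf1: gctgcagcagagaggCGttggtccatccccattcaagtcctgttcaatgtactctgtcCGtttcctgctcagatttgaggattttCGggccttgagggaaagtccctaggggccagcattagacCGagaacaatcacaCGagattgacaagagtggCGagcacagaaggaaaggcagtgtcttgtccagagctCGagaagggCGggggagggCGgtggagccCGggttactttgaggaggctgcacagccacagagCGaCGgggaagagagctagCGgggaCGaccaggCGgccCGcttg
Fgd3: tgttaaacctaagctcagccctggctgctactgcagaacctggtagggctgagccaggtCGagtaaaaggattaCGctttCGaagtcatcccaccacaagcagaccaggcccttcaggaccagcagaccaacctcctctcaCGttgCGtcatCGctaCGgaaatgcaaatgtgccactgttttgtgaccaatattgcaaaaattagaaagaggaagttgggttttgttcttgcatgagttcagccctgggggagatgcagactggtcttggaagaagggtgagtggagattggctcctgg

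The libraries were first checked for their labels and for differences between them. Ring1 was at 2.74, 6.12 and 9.4 TPM in Ring1a/b-dKO and at 5.46, 3.83 and 2.86 TPM in Ring1a-KO, against 7.42, 7.1 and 7.11 TPM in WT. Ring1a/b-dKO replicate 3 was thus above every WT library, and its value per gene does not show the labelled loss of Ring1. Rnf2 was at 24.74, 24.15 and 19.38 TPM in Ring1a/b-dKO and at 47.79, 52.98 and 47.35 TPM in Ring1b-KO, against 76.4, 71.45 and 65.92 TPM in WT. Among the Pcgf genes, Pcgf6 averaged 10.6 TPM in Pcgf-6KO and 0.057 TPM in Pcgf-4KO, against 53.01 TPM in WT. Pcgf1 averaged 3.03 TPM in Pcgf-6KO and 1.23 TPM in Pcgf-4KO, against 10.9 TPM in WT, and Pcgf2 averaged 16.8 TPM in Pcgf-6KO, against 68.6 TPM in WT. The other 3 did not show the labelled loss per gene. Pcgf3 averaged 12.4 TPM in Pcgf-6KO and 11.8 TPM in Pcgf-4KO, against 13.2 TPM in WT. Pcgf5 averaged 22.1 TPM in Pcgf-6KO and 14.52 TPM in Pcgf-4KO, against 9.55 TPM in WT. Bmi1 averaged 15.6 TPM in Pcgf-6KO, against 1.60 TPM in WT. Deletion of single exons cannot be read from values per gene. Ring1a-KO replicates 2 and 3 stood apart, with 3.00% and 1.42% of TPM in small RNA genes against 0.266% to 0.745% in the other 16 libraries. Embryonic stem cell markers (8 of 8 at 1 TPM or more in every group) summed to 1972 to 2432 TPM in Pcgf-6KO, 3875 to 3996 TPM in Pcgf-4KO, 3107 to 3413 TPM in Ring1a/b-dKO, 7477 to 8136 TPM in Ring1b-KO, 4405 to 4744 TPM in Ring1a-KO and 4453 to 4534 TPM in WT. Trophoblast markers moved with the combined mutants, at 709 to 727 TPM in Pcgf-6KO, 257 to 264 TPM in Pcgf-4KO, 226 to 239 TPM in Ring1a/b-dKO and 43.3 to 44.4 TPM in Ring1b-KO, against 16.9 to 19.6 TPM in Ring1a-KO and 13.3 to 15.1 TPM in WT. Germ cell markers summed to 388 to 400 TPM in Pcgf-6KO, 451 to 458 TPM in Pcgf-4KO, 438 to 462 TPM in Ring1a/b-dKO and 383 to 393 TPM in Ring1b-KO, against 28.6 to 38.5 TPM in Ring1a-KO and 29.9 to 33.2 TPM in WT. The sum of the neuroectoderm markers ran the other way, at 76.3 to 90.1 TPM in Pcgf-6KO, 82.2 to 83.9 TPM in Pcgf-4KO, 114 to 122 TPM in Ring1a/b-dKO and 65.7 to 66.3 TPM in Ring1b-KO, against 191 to 221 TPM in Ring1a-KO and 160 to 165 TPM in WT. The number of these 8 markers at 1 TPM or more did not. It was 8 in Pcgf-6KO, 7 in Pcgf-4KO, Ring1a/b-dKO and Ring1b-KO, and 4 in Ring1a-KO and WT. No marker of these 3 lists is among the 76 genes, and the part of such cells in the values below was not tested. Feeder fibroblast markers summed to at most 23.7 TPM in any library.

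Every one of the 76 genes stayed at low to moderate levels even in the combined mutants. Across the genes, the median of the group means was 4.55 TPM in Pcgf-6KO, 3.02 TPM in Pcgf-4KO and 3.25 TPM in Ring1a/b-dKO, against 0.763 TPM in Ring1b-KO, 0.372 TPM in Ring1a-KO and 0.428 TPM in WT. The highest of the 6 means was in Pcgf-6KO for 48 genes, in Ring1a/b-dKO for 22 and in Pcgf-4KO for 6. In 40 genes the lowest combined mutant mean was under 2.5 TPM, near the limit, and in 10 it was 4 TPM or more. Of the 228 values per group (76 genes in 3 libraries), 1 was listed at 0 in Pcgf-6KO, 1 in Pcgf-4KO and 0 in Ring1a/b-dKO, against 5 in Ring1b-KO, 27 in Ring1a-KO and 24 in WT. These are bulk samples, in which more cells of a type and more RNA per cell cannot be told apart.

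Many of the genes lay close to the limits. P3h2 (2.0 TPM), the transcript MSTRG.24491 (2.0033 TPM) and Foxa2 (2.0167 TPM) had the lowest combined mutant means just inside the upper limit, while Jph2, Larp6 and Gm20219 (1.9967 TPM each) fell just outside. Foxe1 (0.9967 TPM), Gab2 and Adtrp (0.99 TPM each) had the highest low-group means just inside the lower limit, while Shroom1 (1.0033 TPM), Snx33 and Pnmt (1.01 TPM each) fell just outside. The limits were met in every single library by 26 of the 76 genes, among them Pax1, Foxl2, Ly6a, Ly6c1, Fgd3, Dusp8, Dlk2, Scara3 and Adra2b. The low-group limit alone was met by 40054 genes. Of these, 387 reached 2 TPM in Pcgf-6KO alone, 126 in Ring1a/b-dKO alone, 47 in Pcgf-4KO alone, 61 in Pcgf-6KO and Ring1a/b-dKO, 37 in Pcgf-6KO and Pcgf-4KO, 14 in Pcgf-4KO and Ring1a/b-dKO, and 39306 in no combined mutant.

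**Figure D1:**
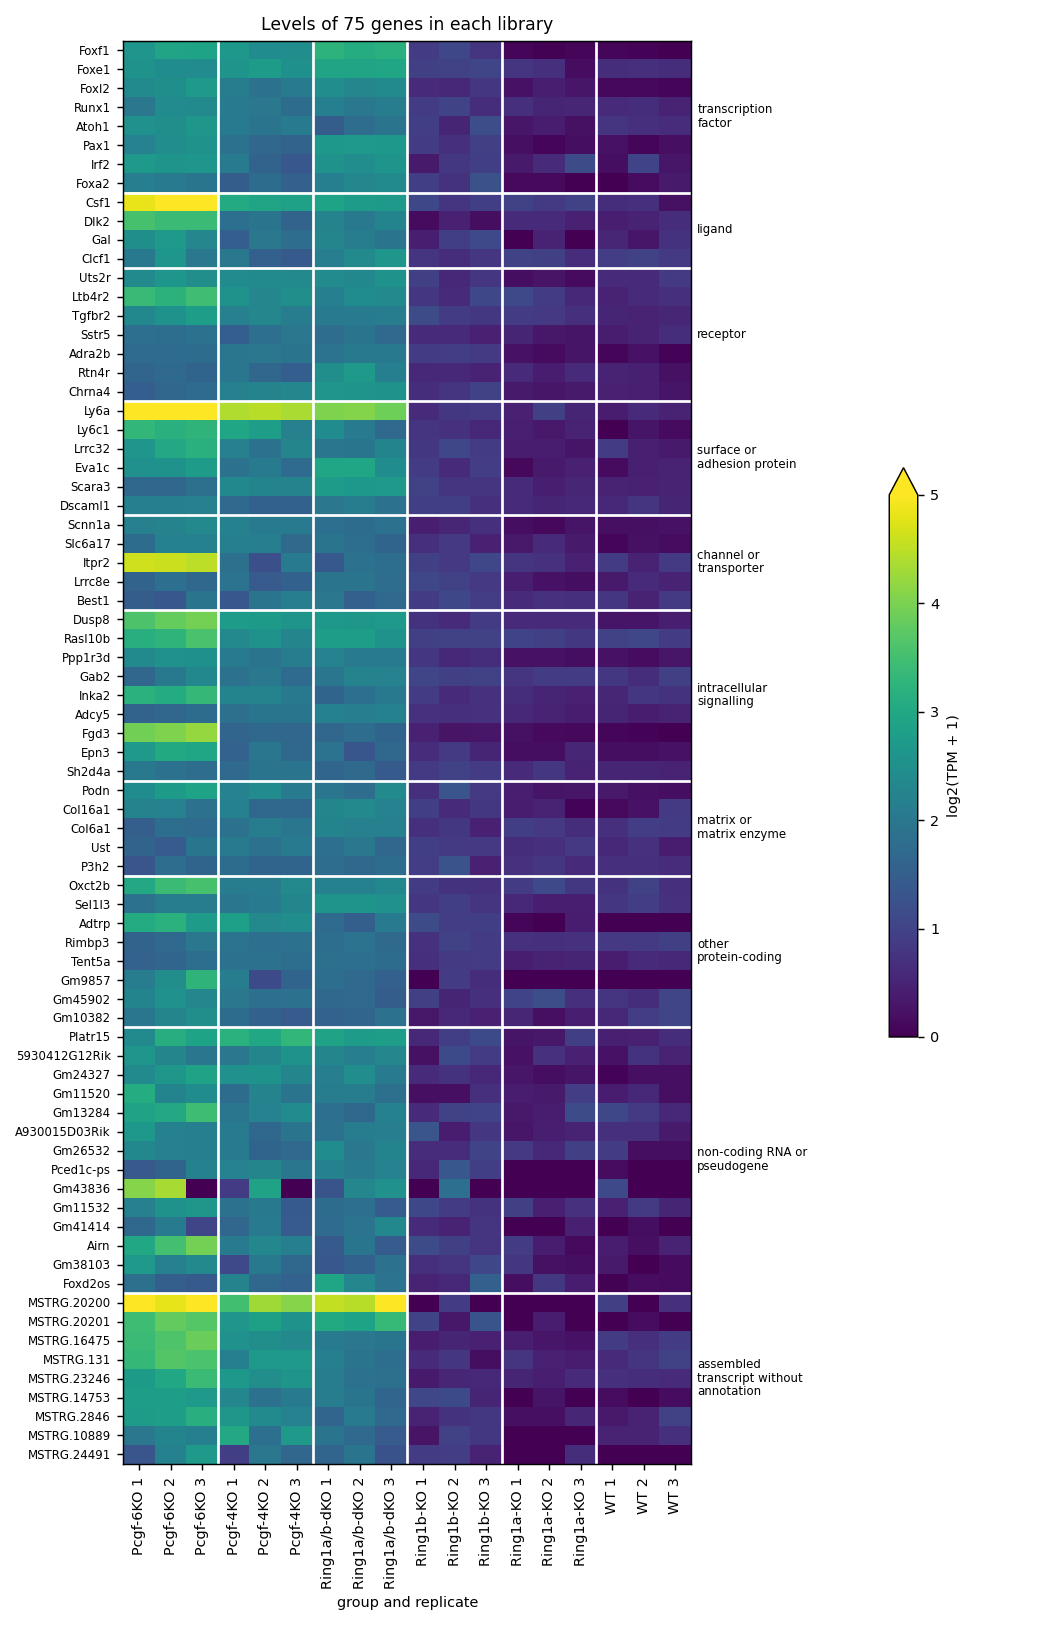
Each row is 1 of 75 of the genes and each column 1 library, with the colour giving log2(TPM + 1), capped at 5, and white lines separating the 6 groups and the roles of the genes. Most rows are brighter in the 9 combined mutant libraries on the left than in the other 9. Csf1, Ly6a, Itpr2 and MSTRG.20200 are the brightest in Pcgf-6KO, and Gm43836 is listed at 0 in 1 Pcgf-6KO and 1 Pcgf-4KO library.

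By role, the genes comprise 9 transcription factors, 4 ligands, 7 receptors, 6 surface or adhesion proteins, 5 channels or transporters, 9 intracellular signalling proteins, 5 matrix proteins or matrix enzymes and 8 other protein-coding genes. A further 14 are non-coding RNAs or pseudogenes, and 9 are assembled transcripts (MSTRG numbers) with no annotation. Differences between 2 combined mutants, or between 2 of the low groups, were tested with limma on a log2(TPM + 1) scale, on which fold changes of genes this low come out too small. Each log2 difference is given as the value ± its SE (3 libraries a group). All 76 genes passed the filter of 1 TPM or more in 3 libraries, through the combined mutants, and p-values were adjusted over 17842 genes. A gene is said to be higher or lower only where its adjusted p was under 0.05. The choice of genes sets no order within the combined mutants or within the low groups, but it bounds how far the low groups can differ. It also drops genes under 2 TPM in any combined mutant, which limits how far a gene can be lower in one of them.

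Between Pcgf-6KO and Pcgf-4KO, which differ by label in Pcgf2 and Pcgf4, most genes were higher in Pcgf-6KO. The cytokine gene Csf1, the calcium channel gene Itpr2, the GTPase activator gene Fgd3 and the EGF-repeat gene Dlk2 showed the largest differences. In all 43 of the 76 genes were higher (56.6%) and 6 lower (7.89%), where 28.8% of all tested genes were called higher and 24% lower. Among the 1605 tested genes under 1 TPM in the 3 low groups, 47.7% were higher and 7.1% lower. Like the 76, these passed the filter largely through the combined mutants, so their shares, here and below, are partly set by the filter. The median log2 difference of the 76 genes was 0.46, against 0.03 for all tested genes and 0.41 for the 1605 low genes. Of the 76 genes, 13 were at least 2-fold higher, a count for which the share of all tested genes is not given here. Quantile normalization gave 29 higher and 14 lower, and a pseudocount of 0.1 gave 24 and 2. The 6 lower calls (Chrna4, Scara3, Ust, Col6a1, Adcy5 and Adra2b) became 2 without Pcgf-6KO replicate 1 or Pcgf-4KO replicate 3 and 3 without Pcgf-6KO replicate 2.

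Between Pcgf-6KO and Ring1a/b-dKO, which share no targeted gene, the genes split more evenly. Itpr2, Fgd3, Csf1 and the antisense RNA gene Airn were the highest in Pcgf-6KO, while Scara3, Chrna4, the non-coding RNA gene Foxd2os and the receptor gene Rtn4r were the lowest. Of the 76 genes 35 were higher (46.1%) and 12 lower (15.8%), against 28.3% and 29.6% of all tested genes. In the 1605 low genes the shares were 41.6% and 17.4%, near those of the 76. The median log2 difference was 0.37, against -0.01 for all tested genes and 0.29 for the 1605 low genes. Of the 76 genes, 18 were at least 2-fold higher, again without a share of all tested genes. Higher calls in both comparisons, which share the Pcgf-6KO libraries, were found for 32 genes, and lower calls in both for 5 (Col6a1, Adcy5, Chrna4, Scara3 and Adra2b, the last not with the replicate block). The share of all tested genes called in both is not given here, so nothing is read from these 2 counts. Against Pcgf-4KO, the lower calls of Col6a1, Adcy5 and Adra2b were lost with a pseudocount of 0.1 and in a fit of only the 2 groups. With a pseudocount of 0.1, 26 were higher and 6 lower in Pcgf-6KO against Ring1a/b-dKO.

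Between Pcgf-4KO and Ring1a/b-dKO most of the genes did not pass the test. The surface antigen genes Ly6a and Ly6c1, the lipid hydrolase gene Adtrp and the kinase inhibitor gene Inka2 were among the higher ones in Pcgf-4KO, and the patterning factor Pax1, the surface receptor gene Eva1c and the interferon regulatory factor gene Irf2 among the lower ones. Of the 76 genes 10 were higher (13.2%) and 16 lower (21.1%), shares near the 15.3% and 22.1% of all tested genes (7.66% and 21.6% of the 1605 low genes), and 0 reached a 2-fold difference in limma's fit. The median log2 difference was -0.04, as for all tested genes, against -0.12 for the 1605 low genes. With a pseudocount of 0.1, 2 were higher and 9 lower. The split also depended on scaling, with 20 higher and 9 lower after quantile normalization and 5 higher and 15 lower among 53 genes when TPM was rescaled over nuclear protein-coding genes. Without Pcgf-4KO replicate 1 or 2 the 10 higher calls became 6, and without Ring1a/b-dKO replicate 3 they became 5. In none of the 3 comparisons were 18 of the 76 genes called, among them Uts2r, Platr15, Sstr5, Gab2 and Tent5a. The share of all tested genes without a call in these comparisons is not given here.

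**Figure D2:**
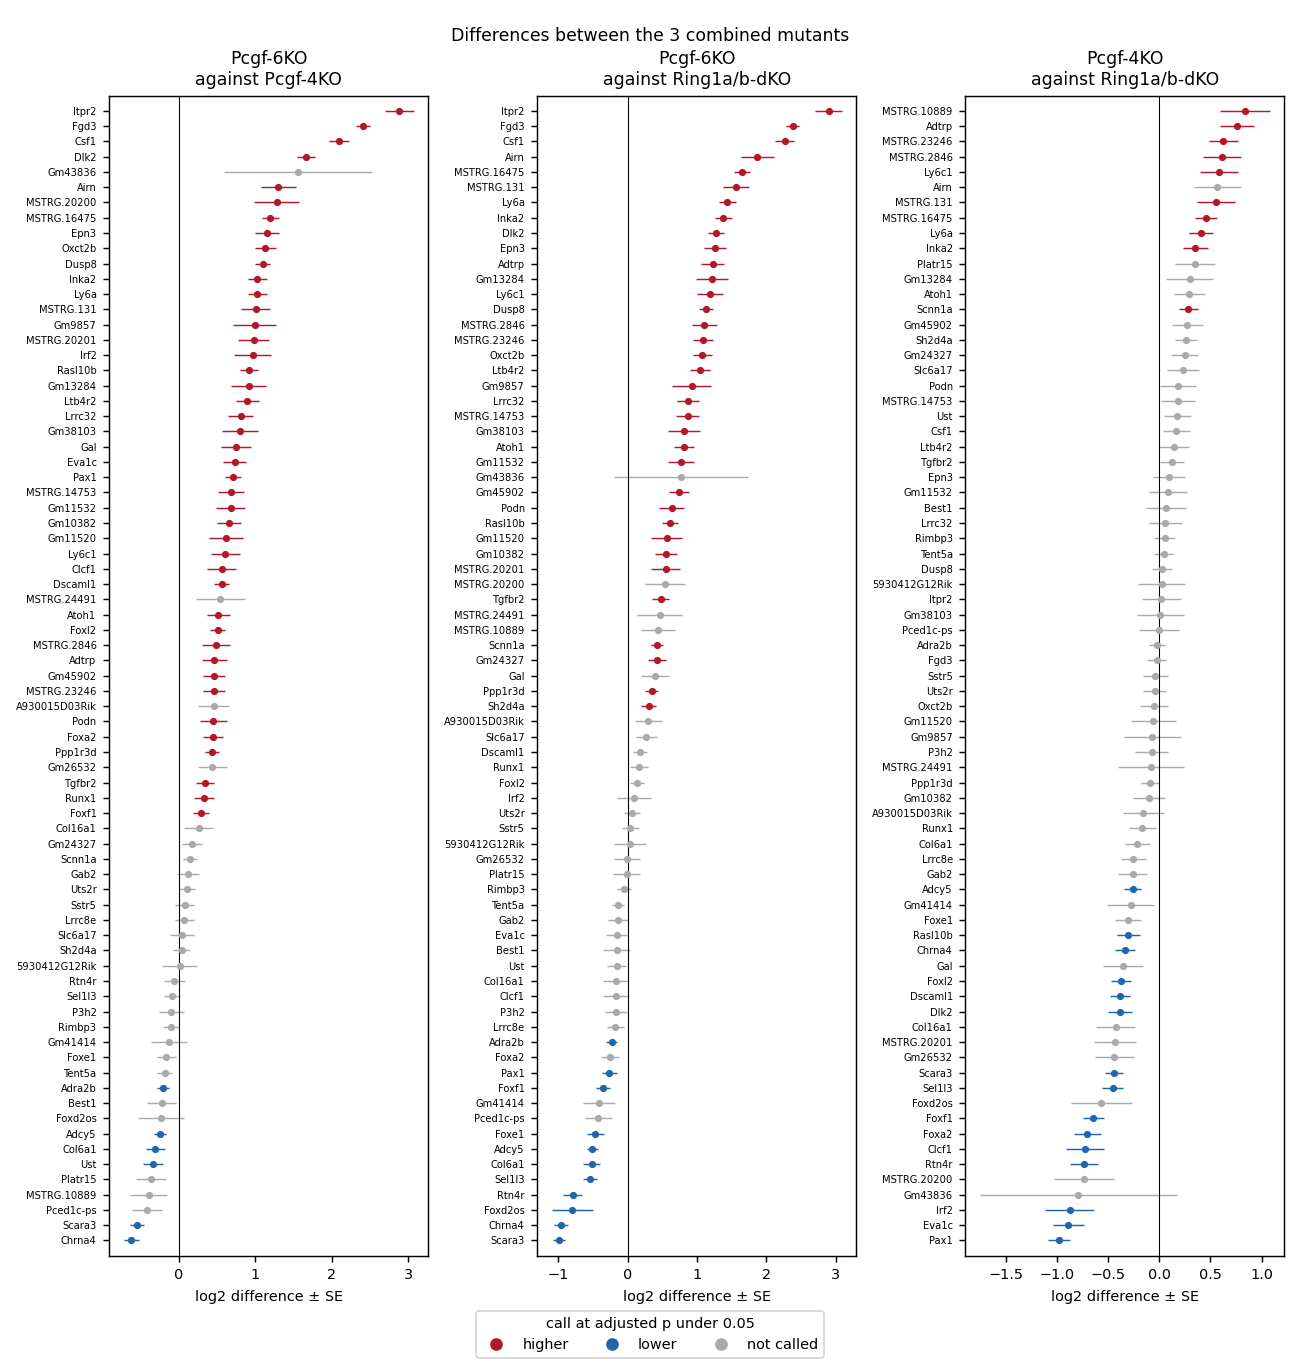
Each point is the log2 difference of 1 of 75 of the genes with its SE (3 libraries a group), in order of size, for Pcgf-6KO against Pcgf-4KO (left), Pcgf-6KO against Ring1a/b-dKO (middle) and Pcgf-4KO against Ring1a/b-dKO (right), coloured by the call at an adjusted p under 0.05. Itpr2 lies at 2.88 and 2.90 in the first 2 panels, and the third panel runs from -0.98 for Pax1 to 0.84 for MSTRG.10889.

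Of the 9 transcription factors 5 (Foxf1, Foxl2, Foxa2, Pax1 and Irf2) were lower in Pcgf-4KO than in both other combined mutants at a pseudocount of 1. In Pcgf-6KO against Pcgf-4KO 7 were higher and 0 lower (3 and 1 after quantile normalization, 2 and 0 with a pseudocount of 0.1). Against Ring1a/b-dKO, 1 was higher and 4 lower in Pcgf-6KO (1 and 0 with a pseudocount of 0.1). In Pcgf-4KO against Ring1a/b-dKO 0 were higher and 6 lower (1 and 5 after quantile normalization, 0 and 3 with a pseudocount of 0.1). Of all tested genes 28.8% and 24% were higher and lower in the first comparison. The second gave 28.3% and 29.6%, and the third 15.3% and 22.1%. In the 1605 low genes the shares were 47.7% and 7.1%, 41.6% and 17.4%, and 7.66% and 21.6%. The same shares apply to the counts by role below, of 4 to 14 genes each, and no difference between roles was tested.

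Pax1, a paired-box factor of the sclerotome and the pharyngeal pouches, had the lowest log2 difference of the 76 genes in Pcgf-4KO against Ring1a/b-dKO. Pax1 (ENSMUSG00000037034, chromosome 2, 147361925 to 147393295) was at 3.68, 4.48 and 4.87 TPM in Pcgf-6KO, 2.64, 2.13 and 2.01 TPM in Pcgf-4KO and 5.35, 5.54 and 5.32 TPM in Ring1a/b-dKO. Its libraries did not overlap between the combined mutants and were highest in Ring1a/b-dKO. It was at 0.83, 0.59 and 0.93 TPM in Ring1b-KO, 0.16, 0.07 and 0.13 TPM in Ring1a-KO and 0.18, 0.05 and 0.15 TPM in WT, with Ring1b-KO above both other low groups. The log2 difference was -0.98 ± 0.11 (adjusted p = 6.06e-06) in Pcgf-4KO against Ring1a/b-dKO and -0.27 ± 0.11 (adjusted p = 0.0456) in Pcgf-6KO against Ring1a/b-dKO. Foxa2, a forkhead factor of the endoderm and the floor plate 649.6 kb away on chromosome 2, was at 3.39, 3.11 and 2.86 TPM in Pcgf-6KO, 1.77, 2.39 and 1.89 TPM in Pcgf-4KO and 3.47, 3.99 and 4.26 TPM in Ring1a/b-dKO. These libraries had the same order and did not overlap either. Foxa2 had a log2 difference of -0.70 ± 0.13 (adjusted p = 0.000755) in Pcgf-4KO against Ring1a/b-dKO, and in Pcgf-6KO against Ring1a/b-dKO it did not pass (-0.25 ± 0.13, adjusted p = 0.122).

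Foxf1, a forkhead factor of the splanchnic mesoderm, was at 5.16, 6.53 and 6.48 TPM in Pcgf-6KO, 5.36, 4.42 and 4.46 TPM in Pcgf-4KO and 8.44, 7.5 and 7.99 TPM in Ring1a/b-dKO. Ring1a/b-dKO libraries were above all others, and those of Pcgf-6KO and Pcgf-4KO overlapped. The log2 difference of Foxf1 was -0.65 ± 0.11 (adjusted p = 0.000224) in Pcgf-4KO against Ring1a/b-dKO and -0.35 ± 0.11 (adjusted p = 0.01) in Pcgf-6KO against Ring1a/b-dKO. Foxf1 (ENSMUSG00000042812, chromosome 8, 121084386 to 121088144) overlaps the gene Gm20388 on the same strand, which averaged 27.0 to 32.1 TPM in the 6 groups, so the counting could split reads between them. Foxf1 is also 1 of 8 mesoderm markers, which summed to 9.98 to 13.0 TPM in Pcgf-6KO, 8.58 to 10.6 TPM in Pcgf-4KO and 20.3 to 20.9 TPM in Ring1a/b-dKO. Foxa2 is 1 of 8 markers of extraembryonic endoderm, which summed to 36.2 to 44.2 TPM in Pcgf-6KO, 27.6 to 32.1 TPM in Pcgf-4KO and 41.2 to 44.6 TPM in Ring1a/b-dKO. The part of such cells in these differences was not tested.

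Foxe1, a factor of the thyroid and the palate, was at 4.85, 4.39 and 4.3 TPM in Pcgf-6KO, 5.04, 5.81 and 4.69 TPM in Pcgf-4KO and 6.53, 6.6 and 6.69 TPM in Ring1a/b-dKO. It was highest in Ring1a/b-dKO without overlap, with a log2 difference of -0.47 ± 0.13 (adjusted p = 0.0052) in Pcgf-6KO against Ring1a/b-dKO. Pcgf-4KO against Ring1a/b-dKO did not pass the test for Foxe1.

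Atoh1 was the 1 transcription factor higher in Pcgf-6KO than in Ring1a/b-dKO. This bHLH factor, needed for cerebellar granule neurons and inner ear hair cells, was at 4.75, 4.53 and 5.23 TPM in Pcgf-6KO, 3.24, 2.8 and 3.19 TPM in Pcgf-4KO and 1.77, 2.47 and 2.81 TPM in Ring1a/b-dKO. Pcgf-6KO libraries were above all others, and the other groups overlapped. Its log2 difference was 0.52 ± 0.15 (adjusted p = 0.00832) against Pcgf-4KO and 0.81 ± 0.15 (adjusted p = 0.000243) against Ring1a/b-dKO. Foxl2, which maintains ovarian granulosa cells, was at 4.23, 4.64 and 5.42 TPM in Pcgf-6KO, 3.33, 2.69 and 3.1 TPM in Pcgf-4KO and 4.45, 3.99 and 4.24 TPM in Ring1a/b-dKO. Pcgf-4KO libraries were below those of both other groups, which overlapped. Foxl2 had a log2 difference of 0.51 ± 0.10 (adjusted p = 0.000547) in Pcgf-6KO against Pcgf-4KO and of -0.37 ± 0.10 (adjusted p = 0.00856) in Pcgf-4KO against Ring1a/b-dKO. Foxl2os on the opposite strand overlaps it and was at 4.82 to 7.19 TPM in the combined mutants, and whether the counting used strand is not given in the sources used here. Irf2, an interferon regulatory factor, was at 5.42, 5.01 and 5.18 TPM in Pcgf-6KO, 3.1, 2.03 and 1.56 TPM in Pcgf-4KO and 4.94, 4.48 and 5.05 TPM in Ring1a/b-dKO. It was lowest in Pcgf-4KO, with a log2 difference of -0.88 ± 0.24 (adjusted p = 0.0096) against Ring1a/b-dKO. Runx1, needed for the first definitive blood stem cells, was at 2.94, 4.32 and 4.26 TPM in Pcgf-6KO, 3.12, 2.97 and 2.39 TPM in Pcgf-4KO and 3.47, 3.01 and 3.37 TPM in Ring1a/b-dKO. These libraries overlapped between all 3 groups, and only Pcgf-6KO against Pcgf-4KO passed the test (0.33 ± 0.13, adjusted p = 0.0443).

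**Figure D3:**
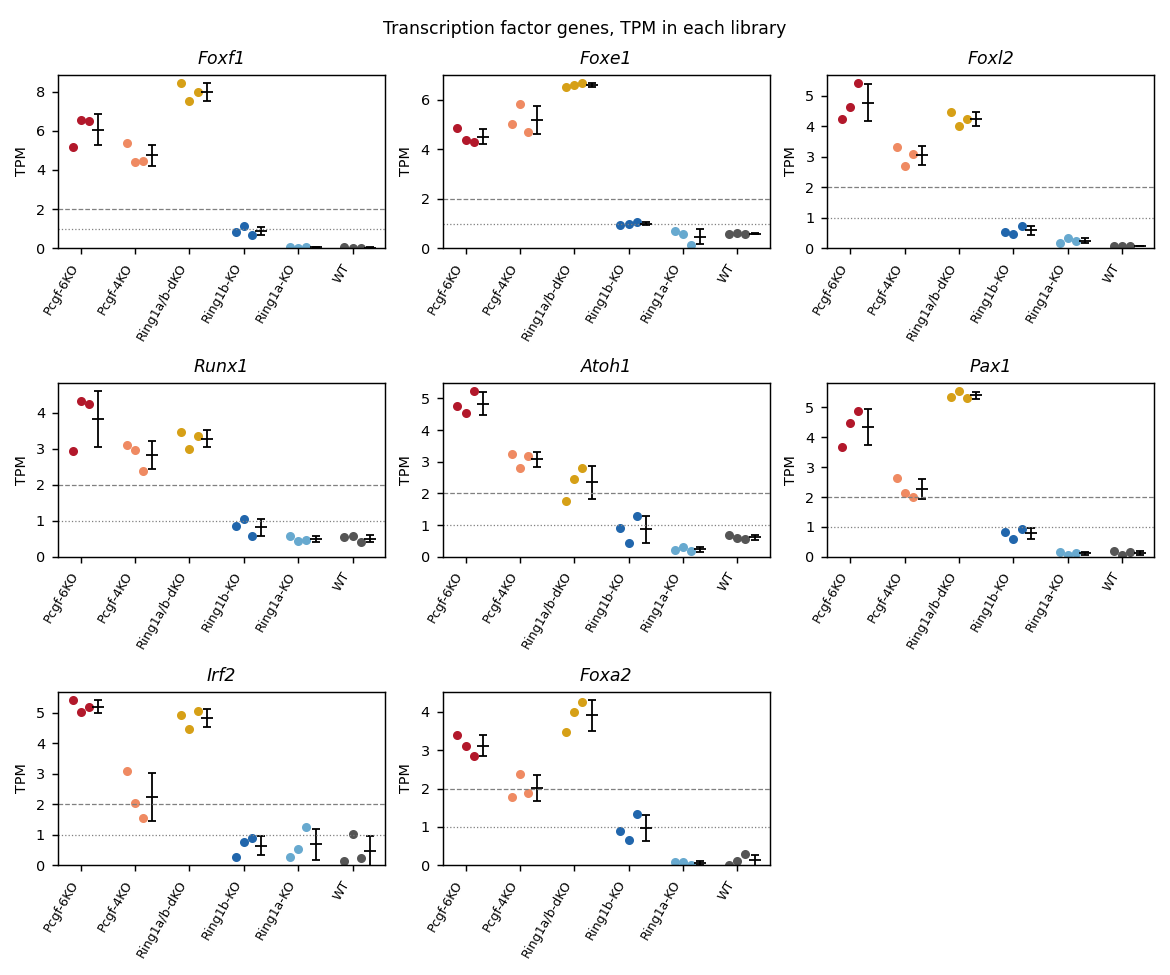
TPM of 8 transcription factor genes in each of the 18 libraries, 1 panel a gene, with points for libraries and bars for the mean ± SD of the 3 libraries of a group; the dashed line marks 2 TPM and the dotted line 1 TPM. Ring1a/b-dKO holds the highest mean for Foxf1, Foxe1, Pax1 and Foxa2, and Pcgf-6KO for Foxl2, Runx1, Atoh1 and Irf2.

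All 4 ligand genes were higher in Pcgf-6KO than in Pcgf-4KO, and after quantile normalization 2 were higher and 0 lower. Csf1 encodes the growth factor of macrophages. Csf1 (ENSMUSG00000014599, chromosome 3, 107741048 to 107760469) was at 27.51, 32.1 and 37.09 TPM in Pcgf-6KO, 7.37, 6.54 and 6.26 TPM in Pcgf-4KO and 6.5, 5.66 and 5.51 TPM in Ring1a/b-dKO. Pcgf-6KO libraries were far above the rest, and Pcgf-4KO and Ring1a/b-dKO overlapped. The log2 difference was 2.098 ± 0.13 (adjusted p = 6.17e-09) in Pcgf-6KO against Pcgf-4KO and 2.26 ± 0.13 (adjusted p = 2.17e-09) against Ring1a/b-dKO. Dlk2, a delta-like protein with EGF repeats, was at 10.64, 9.56 and 9.63 TPM in Pcgf-6KO, 2.57, 2.81 and 2.03 TPM in Pcgf-4KO and 3.71, 3.06 and 3.77 TPM in Ring1a/b-dKO. Its groups did not overlap. Pcgf-6KO was highest, with a log2 difference of 1.66 ± 0.12 (adjusted p = 1.75e-08) against Pcgf-4KO. Gal, the precursor of the neuropeptide galanin, was at 4.61, 5.51 and 4 TPM in Pcgf-6KO, 1.81, 2.96 and 2.43 TPM in Pcgf-4KO and 3.86, 3.35 and 2.8 TPM in Ring1a/b-dKO. Pcgf-6KO was again the highest group, without overlap, with a log2 difference of 0.75 ± 0.20 (adjusted p = 0.00473) against Pcgf-4KO. The difference of Gal from Ring1a/b-dKO did not pass the test. Clcf1, a cytokine acting on the CNTF receptor, was at 3.06, 5.15 and 2.98 TPM in Pcgf-6KO, 3.02, 1.88 and 1.66 TPM in Pcgf-4KO and 3.42, 4.15 and 5.19 TPM in Ring1a/b-dKO. Its Pcgf-6KO libraries overlapped both other groups, and it was higher in Pcgf-6KO than in Pcgf-4KO with a log2 difference of 0.56 ± 0.19 (adjusted p = 0.019).

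The 7 receptor genes went both ways, with 2 higher and 2 lower in Pcgf-6KO against Pcgf-4KO, 2 and 3 against Ring1a/b-dKO, and 0 and 2 in Pcgf-4KO against Ring1a/b-dKO (after quantile normalization 1 and 2, 2 and 3, and 1 and 1). Ltb4r2, a receptor of leukotrienes, was at 9.32, 8.26 and 10.1 TPM in Pcgf-6KO, 4.94, 3.98 and 4.55 TPM in Pcgf-4KO and 3.46, 4.38 and 4.08 TPM in Ring1a/b-dKO. Its Pcgf-6KO libraries were above all others, with a log2 difference of 0.90 ± 0.15 (adjusted p = 0.000112) against Pcgf-4KO. Chrna4, a subunit of the neuronal nicotinic acetylcholine receptor, ran the other way. Chrna4 (ENSMUSG00000027577, chromosome 2, 181018380 to 181043546) was at 1.82, 2.13 and 2.35 TPM in Pcgf-6KO, 3.55, 3.71 and 4 TPM in Pcgf-4KO and 5.07, 4.99 and 4.94 TPM in Ring1a/b-dKO. The groups did not overlap and Pcgf-6KO was the lowest. Its log2 difference was -0.62 ± 0.10 (adjusted p = 7.8e-05) in Pcgf-6KO against Pcgf-4KO and -0.96 ± 0.10 (adjusted p = 8.22e-07) against Ring1a/b-dKO. Adra2b, an adrenergic receptor, was at 2.38, 2.35 and 2.41 TPM in Pcgf-6KO, 2.92, 2.95 and 2.82 TPM in Pcgf-4KO and 2.76, 3.06 and 3.07 TPM in Ring1a/b-dKO. Pcgf-6KO libraries were below the rest by a narrow margin, at -0.21 ± 0.08 (adjusted p = 0.0434) against Pcgf-4KO. That call was lost with the replicate block, with no filter, with a pseudocount of 0.1 and in a fit of only the 2 groups (1 receptor lower under each). Rtn4r, the Nogo receptor of neurons, was at 2.09, 2.26 and 2.04 TPM in Pcgf-6KO, 2.92, 2.12 and 1.81 TPM in Pcgf-4KO and 4.58, 5.41 and 3.46 TPM in Ring1a/b-dKO. Ring1a/b-dKO libraries were above all others, with a log2 difference of -0.79 ± 0.14 (adjusted p = 0.000196) in Pcgf-6KO and -0.74 ± 0.14 (adjusted p = 0.000795) in Pcgf-4KO, each against Ring1a/b-dKO. Uts2r, the urotensin receptor, was at 4.23, 5.17 and 4.57 TPM in Pcgf-6KO, 4.31, 4.26 and 4.1 TPM in Pcgf-4KO and 4.32, 4.04 and 4.86 TPM in Ring1a/b-dKO. It did not pass the test between any 2 combined mutants (adjusted p of 0.412 to 0.779), and the libraries overlapped. Tgfbr2, the type II receptor of TGF-beta, was at 4.94 ± 0.95 TPM in Pcgf-6KO, 3.64 ± 0.32 TPM in Pcgf-4KO and 3.24 ± 0.04 TPM in Ring1a/b-dKO (SD, n = 3), and was higher in Pcgf-6KO than in both.

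Of the 6 surface protein genes, 5 were higher and 1 lower in Pcgf-6KO against Pcgf-4KO. Ly6a (Sca-1, an antigen of blood stem cells and other cells) reached the highest level of all annotated genes of the group. Ly6a (ENSMUSG00000075602, chromosome 15, 74994877 to 74998031) was at 47.14, 40.79 and 39.69 TPM in Pcgf-6KO, 20.07, 21.13 and 19.68 TPM in Pcgf-4KO and 15.37, 15.93 and 13.92 TPM in Ring1a/b-dKO. The 3 groups did not overlap. In the low groups it was at 0.52, 0.76 and 0.79 TPM in Ring1b-KO, 0.37, 0.92 and 0.43 TPM in Ring1a-KO and 0.3, 0.54 and 0.41 TPM in WT, values that overlapped. The log2 difference of Ly6a was 1.03 ± 0.12 (adjusted p = 4.25e-06) in Pcgf-6KO against Pcgf-4KO, 1.44 ± 0.12 (adjusted p = 1.01e-07) in Pcgf-6KO against Ring1a/b-dKO and 0.41 ± 0.12 (adjusted p = 0.0153) in Pcgf-4KO against Ring1a/b-dKO. Ly6c1, a related antigen 46.0 kb away on chromosome 15, was at 8.97, 8.07 and 8.57 TPM in Pcgf-6KO, 6.78, 5.91 and 3.5 TPM in Pcgf-4KO and 4.39, 3.12 and 2.26 TPM in Ring1a/b-dKO. Pcgf-6KO libraries were above the rest, and the other groups overlapped. Ly6c1 was higher in Pcgf-4KO than in Ring1a/b-dKO, with a log2 difference of 0.58 ± 0.19 (adjusted p = 0.0241). That call was lost without any 1 of Pcgf-4KO replicates 1 and 2 and Ring1a/b-dKO replicates 2 and 3 (adjusted p of 0.0609 to 0.124), and the call of Ly6a without Pcgf-4KO replicate 2 (0.38, adjusted p = 0.053) or Ring1a/b-dKO replicate 3 (0.35, adjusted p = 0.0642). Ly6a and Ly6c1 belong to a family of similar genes, between which reads can be split.

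Scara3, a scavenger receptor, had the reverse order. Scara3 (ENSMUSG00000034463, chromosome 14, 65919394 to 65953935) was at 2.2, 2.14 and 2.61 TPM in Pcgf-6KO, 4.01, 3.78 and 3.69 TPM in Pcgf-4KO and 5.79, 5.38 and 5.5 TPM in Ring1a/b-dKO. None of these libraries overlapped, and Pcgf-6KO was the lowest group. The log2 difference of Scara3 was -0.54 ± 0.09 (adjusted p = 0.000112) in Pcgf-6KO against Pcgf-4KO and -0.99 ± 0.09 (adjusted p = 2.25e-07) against Ring1a/b-dKO. Eva1c, whose worm counterpart is a co-receptor for the guidance protein Slit, was at 4.77, 4.95 and 5.68 TPM in Pcgf-6KO, 2.62, 3.09 and 2.36 TPM in Pcgf-4KO and 6.65, 6.66 and 4.4 TPM in Ring1a/b-dKO. Pcgf-4KO libraries were below both other groups, with a log2 difference of -0.89 ± 0.15 (adjusted p = 0.000298) against Ring1a/b-dKO. Lrrc32 (GARP), which anchors latent TGF-beta at the cell surface, was higher in Pcgf-6KO, at 6.70 ± 1.5 TPM, than in Pcgf-4KO, at 3.36 ± 0.6 TPM, and Ring1a/b-dKO, at 3.18 ± 0.52 TPM (SD, n = 3). The cell adhesion gene Dscaml1 was lower in Pcgf-4KO, at 2.05 ± 0.18 TPM, than in Pcgf-6KO, at 3.49 ± 0.046 TPM, and Ring1a/b-dKO, at 2.97 ± 0.31 TPM.

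Among the 5 channels and transporters Itpr2 stood out. It encodes the type 2 receptor of inositol trisphosphate, a calcium channel of the endoplasmic reticulum. Itpr2 (ENSMUSG00000030287, chromosome 6, 146108299 to 146502223) was at 23.77, 23.37 and 21.78 TPM in Pcgf-6KO, 2.59, 1.32 and 3.14 TPM in Pcgf-4KO and 1.61, 2.64 and 2.5 TPM in Ring1a/b-dKO. Pcgf-6KO libraries were well above the rest, and the other groups overlapped. Values in the low groups were 0.94, 0.77 and 1.1 TPM in Ring1b-KO, 0.71, 0.65 and 0.38 TPM in Ring1a-KO and 0.85, 0.4 and 0.81 TPM in WT. The log2 difference was 2.88 ± 0.19 (adjusted p = 8.8e-09) in Pcgf-6KO against Pcgf-4KO and 2.90 ± 0.19 (adjusted p = 6.52e-09) against Ring1a/b-dKO, the largest of the 76 genes in both. Scnn1a, a subunit of the epithelial sodium channel, was lowest in Ring1a/b-dKO, at 3.5, 3.7 and 4.14 TPM in Pcgf-6KO, 3.58, 3.25 and 3.14 TPM in Pcgf-4KO and 2.56, 2.42 and 2.68 TPM in Ring1a/b-dKO. It was higher, with a log2 difference of 0.43 ± 0.09 (adjusted p = 0.000937) in Pcgf-6KO and of 0.28 ± 0.09 (adjusted p = 0.024) in Pcgf-4KO, each against Ring1a/b-dKO and without overlap. The amino acid transporter gene Slc6a17 and the anion channel genes Lrrc8e and Best1 did not pass the test between any 2 combined mutants, with means of 2.04 to 3.20 TPM.

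Of the 9 intracellular signalling genes, 6 were higher and 1 lower in Pcgf-6KO against Pcgf-4KO and 7 and 1 against Ring1a/b-dKO. Fgd3, an exchange factor for the GTPase Cdc42, changed most. Fgd3 (ENSMUSG00000037946, chromosome 13, 49261554 to 49320311) was at 14.29, 15.44 and 17.53 TPM in Pcgf-6KO, 2.11, 2.19 and 2.16 TPM in Pcgf-4KO and 2.12, 2.46 and 2.06 TPM in Ring1a/b-dKO. In the low groups it was at 0.37, 0.2 and 0.23 TPM in Ring1b-KO, 0.17, 0.09 and 0.08 TPM in Ring1a-KO and 0.06, 0.03 and 0 TPM in WT. Pcgf-6KO libraries were apart from all others, and the other combined mutants overlapped. The log2 difference of Fgd3 was 2.40 ± 0.09 (adjusted p = 2.56e-11) in Pcgf-6KO against Pcgf-4KO and 2.38 ± 0.09 (adjusted p = 1.92e-11) against Ring1a/b-dKO. Dusp8, a phosphatase of MAP kinases, was at 11.18, 13.17 and 14.43 TPM in Pcgf-6KO, 5.82, 5.59 and 5 TPM in Pcgf-4KO and 5.34, 5.25 and 5.42 TPM in Ring1a/b-dKO. The picture was the same, with Pcgf-6KO on top and a log2 difference of 1.10 ± 0.10 (adjusted p = 2.34e-07) against Pcgf-4KO. Rasl10b, a small GTPase, was at 7.92, 8.5 and 10.84 TPM in Pcgf-6KO, 4.1, 4.89 and 3.92 TPM in Pcgf-4KO and 5.86, 5.97 and 4.82 TPM in Ring1a/b-dKO. Its Pcgf-6KO libraries were also above the rest, with a log2 difference of 0.92 ± 0.11 (adjusted p = 7.62e-06) against Pcgf-4KO.

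Inka2, an inhibitor of PAK kinases, was at 8.12, 7.44 and 8.99 TPM in Pcgf-6KO, 3.75, 3.7 and 3.04 TPM in Pcgf-4KO and 2.04, 2.55 and 3.04 TPM in Ring1a/b-dKO. Pcgf-6KO was clearly highest, and Pcgf-4KO and Ring1a/b-dKO touched at 3.04 TPM. Inka2 was higher in Pcgf-4KO than in Ring1a/b-dKO, with a log2 difference of 0.35 ± 0.12 (adjusted p = 0.0353), a call lost without any 1 of replicates 1 and 2 of either group (adjusted p of 0.073 to 0.164). Adcy5, an adenylyl cyclase, was the 1 lower gene, at 2.01, 2.15 and 2.4 TPM in Pcgf-6KO, 2.58, 2.86 and 2.87 TPM in Pcgf-4KO and 3.6, 3.39 and 3.57 TPM in Ring1a/b-dKO. No library overlapped another group, and Adcy5 had a log2 difference of -0.24 ± 0.08 (adjusted p = 0.0206) in Pcgf-6KO against Pcgf-4KO. Epn3 (an epsin) and Ppp1r3d (a glycogen-targeting subunit of protein phosphatase 1) were higher in Pcgf-6KO than in both others, at 6.47 ± 0.92 and 4.55 ± 0.34 TPM in Pcgf-6KO (SD, n = 3). Gab2, a docking protein of receptor tyrosine kinases, was not called in any comparison.

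The 5 matrix genes included 2 of the 6 that were lower in Pcgf-6KO than in Pcgf-4KO. Col6a1, a chain of collagen VI, was at 1.84, 2.48 and 2.37 TPM in Pcgf-6KO, 2.66, 3.36 and 2.92 TPM in Pcgf-4KO and 3.8, 3.51 and 3.52 TPM in Ring1a/b-dKO. Pcgf-6KO libraries were below the rest, with a log2 difference of -0.30 ± 0.12 (adjusted p = 0.045) against Pcgf-4KO. Ust, which sulfates chondroitin and dermatan chains, was at 2.03, 1.72 and 2.86 TPM in Pcgf-6KO, 3.19, 2.7 and 3.13 TPM in Pcgf-4KO and 2.53, 3 and 2.14 TPM in Ring1a/b-dKO. Its libraries overlapped between all 3 groups, and the log2 difference from Pcgf-4KO was -0.34 ± 0.13 (adjusted p = 0.0437). With a pseudocount of 0.1, with no filter and in a fit of only the 2 groups, 0 of the 5 matrix genes were lower. The replicate block left 1 lower. Median ratio scaling, quantile normalization and rescaling over nuclear protein-coding genes each gave 2 lower. Both calls also depended on which libraries were kept. That of Col6a1 was lost without Pcgf-6KO replicate 1 or 3 or Pcgf-4KO replicate 2 or 3 (-0.21 to -0.34), and that of Ust without Pcgf-6KO replicate 1 or 2 or Pcgf-4KO replicate 1 or 3 (-0.23 to -0.31). Podn, a small leucine-rich proteoglycan, was at 5.47 ± 1.0 TPM in Pcgf-6KO (SD, n = 3). It was higher than in Ring1a/b-dKO, while its call against Pcgf-4KO (adjusted p = 0.0435) was lost under every other processing setting, the replicate block included, which gave 0 of the 5 matrix genes higher. Podn overlaps Scp2 on the same strand, which averaged 62.7 to 110.7 TPM.

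Among the other protein-coding genes, Adtrp, a hydrolase of fatty acid esters, was at 7.38, 8.09 and 5.82 TPM in Pcgf-6KO, 6.07, 4.09 and 4.46 TPM in Pcgf-4KO and 2.37, 1.84 and 3.23 TPM in Ring1a/b-dKO. Ring1a/b-dKO libraries were below both other groups, which overlapped. Adtrp had a log2 difference of 0.76 ± 0.16 (adjusted p = 0.00209) in Pcgf-4KO against Ring1a/b-dKO. Oxct2b, an enzyme of ketone body use known from the testis, was at 7.08, 9.55 and 10.72 TPM in Pcgf-6KO, 3.31, 3.32 and 4.08 TPM in Pcgf-4KO and 3.6, 3.59 and 4.03 TPM in Ring1a/b-dKO. Pcgf-6KO was highest, with a log2 difference of 1.13 ± 0.14 (adjusted p = 5.49e-06) against Pcgf-4KO. Oxct2b overlaps Bmp8b on the same strand, which averaged 42.0 TPM in Pcgf-6KO, 19.8 TPM in Pcgf-4KO and 25.9 TPM in Ring1a/b-dKO, and 4.12 TPM in Ring1b-KO, 4.09 TPM in Ring1a-KO and 2.94 TPM in WT. Sel1l3 was at 2.71, 3.28 and 3.28 TPM in Pcgf-6KO, 2.91, 3.19 and 3.93 TPM in Pcgf-4KO and 4.98, 5.04 and 4.8 TPM in Ring1a/b-dKO. Its Ring1a/b-dKO libraries were above the rest, with a log2 difference of -0.54 ± 0.10 (adjusted p = 0.000327) in Pcgf-6KO against Ring1a/b-dKO.

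Of the 14 non-coding RNAs and pseudogenes, 5 were higher and 0 lower in Pcgf-6KO against Pcgf-4KO (3 and 2 after quantile normalization), and 6 and 1 against Ring1a/b-dKO. Airn, the imprinted RNA that silences Igf2r on the paternal chromosome, was at 6.88, 10.3 and 14.53 TPM in Pcgf-6KO, 3.13, 3.97 and 3.47 TPM in Pcgf-4KO and 1.66, 2.84 and 1.76 TPM in Ring1a/b-dKO. Pcgf-6KO libraries were above the rest without overlap. Those of Pcgf-4KO were above Ring1a/b-dKO, a difference that did not pass the test. Its log2 difference was 1.87 ± 0.23 (adjusted p = 6.43e-06) in Pcgf-6KO against Ring1a/b-dKO. Igf2r itself, which Airn overlaps on the opposite strand, averaged 39.7 TPM in Pcgf-6KO, 32.7 TPM in Pcgf-4KO, 38.2 TPM in Ring1a/b-dKO, 33.0 TPM in Ring1b-KO, 17.7 TPM in Ring1a-KO and 17.2 TPM in WT. Platr15, an RNA named for its association with pluripotency, was at 4.28, 7.64 and 6.47 TPM in Pcgf-6KO, 8.15, 6.95 and 8.95 TPM in Pcgf-4KO and 6.32, 5.83 and 6.01 TPM in Ring1a/b-dKO. It was not called between any combined mutants. Its Pcgf-6KO libraries overlapped both other groups, while those of Pcgf-4KO were above Ring1a/b-dKO. Foxd2os, 384 bases from the forkhead gene Foxd2, was at 2.61, 1.86 and 1.66 TPM in Pcgf-6KO, 3.72, 2.17 and 1.96 TPM in Pcgf-4KO and 6.74, 4 and 2.72 TPM in Ring1a/b-dKO. It was lower in Pcgf-6KO than in Ring1a/b-dKO, with a log2 difference of -0.80 ± 0.30 (adjusted p = 0.0312), a call lost without Pcgf-6KO replicate 2 or 3 or Ring1a/b-dKO replicate 1 or 2 (-0.52 to -0.83, adjusted p of 0.055 to 0.162). The predicted gene Gm43836 was at 16.1, 19.44 and 0 TPM in Pcgf-6KO, 0.84, 6.38 and 0 TPM in Pcgf-4KO and 1.46, 4 and 4.75 TPM in Ring1a/b-dKO, a spread within groups too wide for its fold changes to be read.

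Of the 9 assembled transcripts most were higher in Pcgf-6KO, with 7 higher and 0 lower against Pcgf-4KO and 6 and 0 against Ring1a/b-dKO. Of all tested genes 28.8% and 28.3% were higher in these comparisons, and of the 1605 low genes 47.7% and 41.6%. MSTRG.20200 was at 43.01, 27.14 and 41.74 TPM in Pcgf-6KO, 10.2, 18.41 and 15.98 TPM in Pcgf-4KO and 22.43, 20.95 and 32.32 TPM in Ring1a/b-dKO. It was listed at 0 in all 3 Ring1a-KO libraries and in 2 of 3 Ring1b-KO libraries. MSTRG.16475 was at 9.63, 11.33 and 13.78 TPM in Pcgf-6KO, 4.76, 4.52 and 4.08 TPM in Pcgf-4KO and 3.12, 2.94 and 2.85 TPM in Ring1a/b-dKO, in groups that did not overlap. These transcripts were also higher in Pcgf-4KO than in Ring1a/b-dKO in 5 cases, against 0 lower.

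Of the 3 low groups, Ring1b-KO had the highest mean for 59 genes, Ring1a-KO for 8 and WT for 9. A mean of 0.5 TPM or more was reached by 64 genes in Ring1b-KO, by 21 in Ring1a-KO and by 27 in WT. Such counts over all genes are not given here, so this order is not read as a trait of the 76 genes. All tested genes also ran higher in Ring1b-KO than in WT, with a median log2 difference of 0.13 and 34.7% called higher. After quantile normalization the median of the 76 genes was -0.09.

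Ring1b-KO was compared with WT to ask whether loss of Ring1b alone moves these genes within their narrow range. Transcription factors (Foxf1, Foxa2, Pax1, Foxl2 and Foxe1 among them), the receptor genes Adra2b and Chrna4, and Adtrp were higher. Of the 76 genes 32 were higher (42.1%) and 2 lower (2.63%), where 34.7% of all tested genes were called higher and 17.1% lower, and where the 1605 low genes gave 24.9% and 1.68%. The median log2 difference was 0.30, against 0.13 for all tested genes and 0.18 for the 1605 low genes. It was 0.25 after median ratio scaling, which set the median of all tested genes to -0.01. Quantile normalization turned the split to 8 higher and 16 lower, with a median of -0.09 for the 76 genes, so the direction of the whole group depends on the scaling. The 2 lower calls (MSTRG.16475 and Gm10382) became 0 without Ring1b-KO replicate 1 or WT replicate 3, and 1 without Ring1b-KO replicate 3 or WT replicate 1 or 2.

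Of the 9 transcription factors 6 were higher and 0 lower in Ring1b-KO against WT (3 and 0 after quantile normalization). Of the 9 signalling genes 6 were also higher and 0 lower, but 0 and 3 after quantile normalization. Foxf1 was at 0.83, 1.13 and 0.7 TPM in Ring1b-KO, 0.05, 0.02 and 0.07 TPM in Ring1a-KO and 0.05, 0.03 and 0 TPM in WT. Ring1b-KO libraries were above all others, with a log2 difference of 0.87 ± 0.11 (adjusted p = 5.47e-06) against WT. Foxa2 was at 0.89, 0.67 and 1.35 TPM in Ring1b-KO, 0.09, 0.09 and 0 TPM in Ring1a-KO and 0, 0.12 and 0.29 TPM in WT. Its Ring1b-KO libraries were also above the rest, with a log2 difference of 0.79 ± 0.13 (adjusted p = 0.000153). The extraembryonic endoderm markers, of which Foxa2 is 1, summed to 38.7 to 41.5 TPM in Ring1b-KO, against 3.63 to 4.17 TPM in Ring1a-KO and 2.93 to 3.29 TPM in WT, and their part was not tested. The mesoderm markers, with Foxf1, summed to 6.32 to 7.97 TPM in Ring1b-KO, against 3.32 to 3.97 TPM in Ring1a-KO and 8.4 to 8.64 TPM in WT. Foxl2 was at 0.54, 0.48 and 0.74 TPM in Ring1b-KO, 0.18, 0.34 and 0.24 TPM in Ring1a-KO and 0.08, 0.08 and 0.06 TPM in WT. Here all Ring1b-KO libraries were above those of Ring1a-KO and WT, with a log2 difference of 0.56 ± 0.10 (adjusted p = 0.000239) against WT. Foxe1 was at 0.94, 0.98 and 1.07 TPM in Ring1b-KO, 0.71, 0.59 and 0.12 TPM in Ring1a-KO and 0.58, 0.61 and 0.58 TPM in WT. Ring1b-KO was highest without overlap, with a log2 difference of 0.33 ± 0.13 (adjusted p = 0.0401).

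Among other roles, Adra2b was at 0.84, 0.88 and 0.8 TPM in Ring1b-KO, 0.18, 0.1 and 0.22 TPM in Ring1a-KO and 0.06, 0.18 and 0.03 TPM in WT. Ring1b-KO libraries were above the rest, with a log2 difference of 0.76 ± 0.08 (adjusted p = 1.32e-06) against WT. Chrna4 was at 0.57, 0.69 and 0.96 TPM in Ring1b-KO, 0.28, 0.24 and 0.28 TPM in Ring1a-KO and 0.38, 0.35 and 0.21 TPM in WT. Ring1b-KO libraries were again above the rest, with a log2 difference of 0.40 ± 0.10 (adjusted p = 0.00284). Adtrp was at 1.21, 0.87 and 0.89 TPM in Ring1b-KO, 0.05, 0 and 0.31 TPM in Ring1a-KO and 0 TPM in all 3 WT libraries. It was listed at 0 in every WT library, so no fold is given, and it was called (adjusted p = 0.000128). The pseudogene Pced1c-ps was at 0.49, 1.55 and 0.9 TPM in Ring1b-KO, 0 TPM in all 3 Ring1a-KO libraries and 0.12, 0 and 0 TPM in WT. Ring1b-KO libraries were above the rest, which were at or near 0 (adjusted p = 0.0013 against WT). Csf1 was at 1.12, 0.71 and 0.9 TPM in Ring1b-KO, 0.97, 0.79 and 0.99 TPM in Ring1a-KO and 0.57, 0.6 and 0.17 TPM in WT. Both single mutants were above WT without overlap, with a log2 difference of 0.41 ± 0.13 (adjusted p = 0.0184) in Ring1b-KO. Itpr2 and Ly6a were not called (adjusted p = 0.39 and 0.0917). Of the ligands 1 was higher and 0 lower (0 and 2 after quantile normalization), and of the receptors 3 and 0 (1 and 2 after quantile normalization).

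Ring1a-KO against WT gave few calls. Csf1 and Dusp8 were higher, and Uts2r, Sel1l3, Gm10382 and MSTRG.16475 lower. That is 2 higher (2.63%) and 4 lower (5.26%) of 76, against 12.3% and 10.8% of all tested genes and 1.68% and 1.25% of the 1605 low genes, with a median log2 difference of -0.01, as for all tested genes (0.01). Uts2r was at 0.94, 0.5 and 0.73 TPM in Ring1b-KO, 0.13, 0.2 and 0.11 TPM in Ring1a-KO and 0.53, 0.51 and 0.81 TPM in WT. Ring1a-KO libraries were below all others, with a log2 difference of -0.49 ± 0.11 (adjusted p = 0.00431) against WT. Dusp8 was at 0.66, 0.51 and 0.83 TPM in Ring1b-KO, 0.54, 0.53 and 0.53 TPM in Ring1a-KO and 0.21, 0.21 and 0.34 TPM in WT. Ring1a-KO lay above WT without overlap, with a log2 difference of 0.29 ± 0.10 (adjusted p = 0.0432). Sel1l3 was at 0.73, 0.9 and 0.68 TPM in Ring1b-KO, 0.48, 0.33 and 0.34 TPM in Ring1a-KO and 0.72, 0.87 and 0.64 TPM in WT. Ring1a-KO was lowest without overlap, with a log2 difference of -0.33 ± 0.10 (adjusted p = 0.0281).

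These calls rested on few libraries. For Csf1 (0.42 ± 0.13, adjusted p = 0.0349) the call was lost without Ring1a-KO replicate 1 or 3 or WT replicate 3 (0.27 to 0.40). For Dusp8 it was lost without any 1 library except WT replicate 3, and for Sel1l3 without Ring1a-KO replicate 2 or 3 or WT replicate 1 or 2. The count of higher calls was 0 when Ring1a-KO replicate 1 or 3 was left out and 1 when Ring1a-KO replicate 2 or WT replicate 2 or 3 was, and the lower calls 2 without Ring1a-KO replicate 2 or 3 or WT replicate 2. Without Ring1a-KO replicates 2 and 3 together, the libraries that stood apart, 0 of the 76 genes were called by limma, and Uts2r was at -0.51 (adjusted p = 0.0601). The lone remaining library is then assumed to vary like those of the other groups.

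Ring1b-KO against Ring1a-KO, with 28 higher (36.8%) and 0 lower, shares the Ring1b-KO libraries with the comparison against WT. In all tested genes 33.9% were higher and 17.1% lower, and in the 1605 low genes 23.8% and 1.43%. At an unadjusted p under 0.05 limma gave 33 genes in either direction. The median log2 difference was 0.30, against 0.12 for all tested genes and 0.17 for the 1605 low genes. Foxa2 (0.88 ± 0.13, adjusted p = 5.39e-05), Foxf1 (0.84 ± 0.11, adjusted p = 7.89e-06) and Adtrp (0.84 ± 0.16, adjusted p = 0.000578) had the largest differences beside Pced1c-ps, which was listed at 0 in every Ring1a-KO library. Quantile normalization gave 7 higher and 14 lower. Leaving out Ring1a-KO replicates 2 and 3 gave 17 higher and 0 lower, and 1 gene was lower without Ring1b-KO replicate 2.

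**Figure D4:**
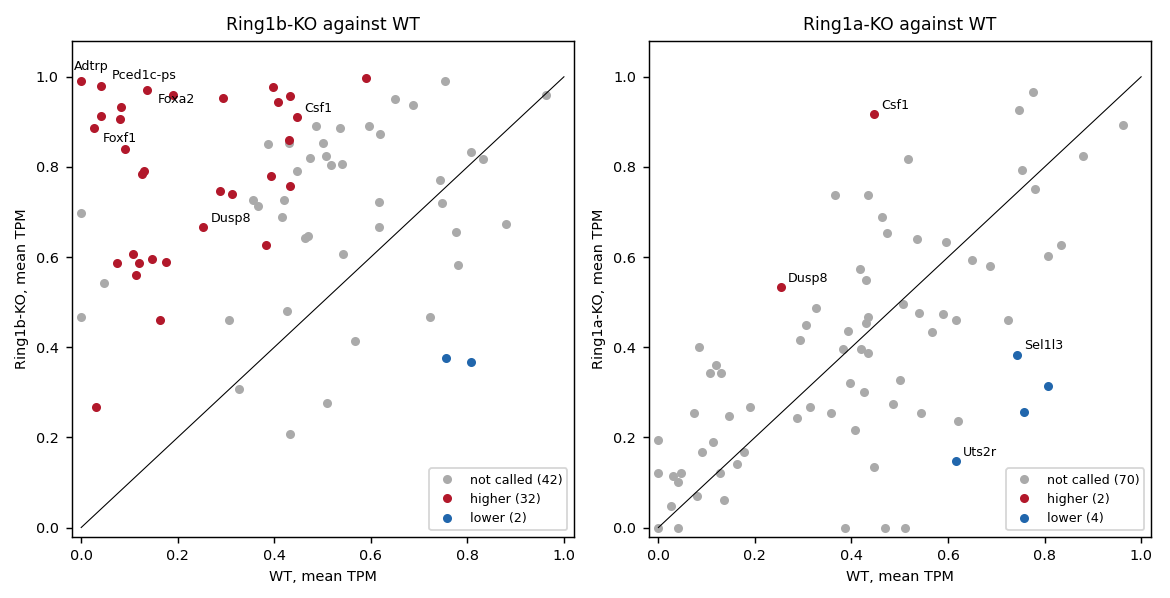
Mean TPM (3 libraries a group) of the 76 genes in Ring1b-KO (left) and Ring1a-KO (right) on the vertical axis against WT on the horizontal axis, with the line of equal values; points are coloured by the call at an adjusted p under 0.05. On the left 32 genes are called higher, and on the right 2.

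Genes of the same families outside the 76 were followed through lists. Of 54 tested Pax, T-box, Fox, Sox and Gata factors, of which Foxa2, Pax1, Foxf1, Foxl2 and Foxe1 are among the 76, 27 were higher and 9 lower in Pcgf-6KO against Pcgf-4KO, 4 and 30 in Pcgf-6KO against Ring1a/b-dKO, 5 and 40 in Pcgf-4KO against Ring1a/b-dKO, and 35 and 7 in Ring1b-KO against WT. Of all tested genes the shares in these 4 comparisons were 28.8% higher and 24% lower, 28.3% and 29.6%, 15.3% and 22.1%, and 34.7% and 17.1%. In all, 6 of 12 lists held 11 of the 76 genes. The trophoblast list (26 tested) and the germline list (73 tested) held 0. In Ring1b-KO against WT these had 25 higher and 1 lower, with a median log2 difference of 1.22, and 61 higher and 3 lower, with a median of 1.59, where 34.7% of all tested genes were higher and 17.1% lower, with a median of 0.13. Counts of listed genes that passed the filter through the mutants are partly set by that filter.

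The genes are spread over many chromosomes, with 8 on chromosome 2, 7 on chromosome 16 and 6 on chromosome 4. Of the 67 genes with a position, 11 overlap a gene at 1 TPM or more on the opposite strand, and 6 overlap one on the same strand. The part of reads from such partners in the levels of the 76 genes was not tested.

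CpG content at the transcript start varied widely among the genes. For each gene the annotated transcript starting furthest 5' was taken, whether or not that start was used in these cells. The ratio of observed to expected CpG in the first 200 transcript bases was taken for 66 of the 76 genes. These are the genes with an annotated transcript of at least 200 bases. Their median was 0.649, and 54.5% reached 0.6. All tested genes had a median of 0.731 and 63.5%, and the tested genes under 1 TPM in the low groups 0.517 and 42.3%. For protein-coding genes the medians were 0.713 for the 53 genes, 0.772 for all tested and 0.582 for the low ones. These are descriptions without a test. Foxf1 had 28 CpG in this stretch and Rtn4r 36, whereas Ly6a and Best1 had 0 and Ly6c1 2. A RefSeq start window was found for 35 of the 67 genes with a symbol, too few for a comparison of the group with other genes. These windows of 300 bases can lie at another start. Podn had 0 CpG in its first transcript bases but 7 and 41 in its windows, Chrna4 5 but 33, and Tgfbr2 23 but 15. The part of this choice of start in the spread was not tested.

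**Figure D5:**
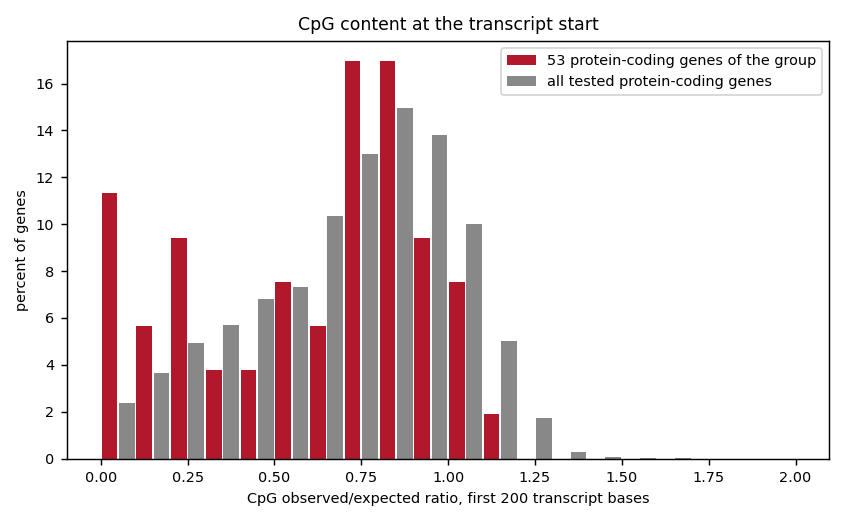
Share of genes (percent, vertical axis) by the observed to expected ratio of CpG in the first 200 transcript bases (horizontal axis, bins of 0.1), for the 53 protein-coding genes of the group (red) and all tested protein-coding genes (grey). The annotated transcript starting furthest 5' was taken for each gene. Of the 53 genes 11.3% lie in the lowest bin, among them Ly6a and Best1, against 2.38% of all tested protein-coding genes.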

How the data were processed

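RNA-seq of mouse embryonic stem cells was analysed from a table of TPM per gene that the authors deposited, with 3 libraries for each of 6 genotypes. Per the labels' protocols, total RNA was extracted with Trizol and libraries were made with a TruSeq RNA kit. Named without roles are GRCm38.p5, edgeR, RSEM and TopHat2 2.1.1, per the submitters' processing notes. Neither the annotation nor any use of strand is given in the sources used here. TPM values summed to 999999 to 1000000.3 in each library, which leaves the sequencing depth unknown, and counting intervals are not given. An exact 0 is reported only as listed, since 86 genes with a median of at least 5 TPM had a 0 in 1 library or more. The 6 columns of the authors' means were not used.

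The genes were selected on group means under 1 TPM in Ring1b-KO, Ring1a-KO and WT and at 2 TPM or more in Pcgf-6KO, Pcgf-4KO and Ring1a/b-dKO. The members, lists, roles and comparisons were chosen with earlier results of these data known. Differences were tested with limma 3.58.1 in R 4.3.3 (moderated test with a trend on the mean, two-sided) on log2(TPM + 1), in 1 fit of all 18 libraries with 1 mean per group (12 residual degrees of freedom), for genes reaching 1 TPM in 3 or more libraries. Adjustment was by Benjamini-Hochberg over 17842 genes within a comparison, with a call at an adjusted p under 0.05. The fit was tested on simulated data. Symbols and positions came from GENCODE vM21 (GRCm38). Genes named in the text are the 10 with the highest lowest combined mutant mean, up to 4 a list, the 4 largest called differences in each direction, those at the limits, and further members named after their values were seen to fill a role. Other pseudocounts, filters, scalings, groups in the fit, a replicate block and leaving out libraries were tried. The replicate numbers did not pair the libraries. Results on 1 of the 76 genes and on 1 neighbouring gene are not reported here, and the counts include that member.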

Additional observations from a re-analysis of the deposited data

How the results depend on the processing

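The number of genes selected was 26 when every library had to meet the limits, 0 with limits of 0.5 and 4 TPM, 45 after median ratio scaling and 50 after rescaling TPM over nuclear protein-coding genes, which leaves out the non-coding members. Leaving out 1 library at a time gave 70 to 79 genes. In the counts of called genes below, the cause of each change was not tested.

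With a pseudocount of 0.1, Pcgf-6KO against Pcgf-4KO gave 24 higher and 2 lower, Pcgf-6KO against Ring1a/b-dKO 6 lower, Pcgf-4KO against Ring1a/b-dKO 2 higher and 9 lower, Ring1a-KO against WT 7 higher and 7 lower, and Ring1b-KO against Ring1a-KO 1 lower. With no filter on low values, 3 were lower in Pcgf-6KO against Pcgf-4KO, 6 higher in Pcgf-4KO against Ring1a/b-dKO, 1 lower in Ring1b-KO against WT, and 0 higher and 2 lower in Ring1a-KO against WT. Quantile normalization gave 14 lower in Pcgf-6KO against Pcgf-4KO, 20 higher and 9 lower in Pcgf-4KO against Ring1a/b-dKO, 8 higher and 16 lower in Ring1b-KO against WT, and 7 higher and 14 lower in Ring1b-KO against Ring1a-KO. Rescaling over nuclear protein-coding genes kept only the 53 protein-coding genes of the group, so its counts are out of a smaller set. It gave 28 higher in Pcgf-6KO against Pcgf-4KO, 23 higher in Pcgf-6KO against Ring1a/b-dKO and 5 higher in Pcgf-4KO against Ring1a/b-dKO. It also gave 1 lower in Ring1b-KO against WT and 1 lower in Ring1b-KO against Ring1a-KO. Median ratio scaling gave 1 lower in Ring1b-KO against Ring1a-KO. A fit of only the 2 groups compared gave 2 lower in Pcgf-6KO against Pcgf-4KO and 1 lower in Ring1b-KO against WT. Without Ring1a-KO replicates 2 and 3, chosen after seeing the data, Ring1a-KO against WT gave 0 higher and 0 lower, and Ring1b-KO against Ring1a-KO gave 17 higher.

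Leaving out 1 library at a time gave 34 to 42 higher and 2 to 6 lower in Pcgf-6KO against Pcgf-4KO, 32 to 36 and 9 to 12 in Pcgf-6KO against Ring1a/b-dKO, 5 to 8 and 13 to 17 in Pcgf-4KO against Ring1a/b-dKO, 26 to 29 and 0 to 3 in Ring1b-KO against WT, 0 to 2 and 2 to 4 in Ring1a-KO against WT, and 25 to 28 and 0 to 1 in Ring1b-KO against Ring1a-KO. With the replicate number as a block, the counts were 42 and 4, 34 and 11, 9 and 16, 30 and 2, 1 and 3, and 29 and 0 in the same order. Of 45 pairs of libraries with the same number in different groups, 0 had deviations correlated above 0.1 (-0.109 to 0.0714), and 8 of 18 libraries were closest to their own number, so the samples share only a number. Single genes were followed only where named for a largest called difference, up to 4 a direction in each comparison. Their stability need not hold for the other calls. Of 248 such values under other processing, 223 kept their call and direction and 25 lost the call. Of 224 such values with libraries left out, 186 kept and 38 lost the call. Depth is unknown, so the precision of values under 1 TPM cannot be stated.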
